A study of Mus musculus with 12 samples.

Results

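Egr1, Egr2, Egr3, Nr4a1, Nr4a2 and Nr4a3 are transcription factors that T cells induce within minutes to hours of T cell receptor engagement, and their RNA was followed here across regulatory and effector T cells treated with a DNA methyltransferase inhibitor. A gene was taken where a row of the deposited table carried its symbol and no other, with the brightest row over 12 arrays where a gene had several. Each of the 6 factors had exactly 1 such row, and 0 further rows carried one of their symbols together with another gene's, so all 6 entered among 22180 measured genes.

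The RNA came from mouse T cells grown together and then sorted, 3 Affymetrix arrays in each of 4 groups. Natural regulatory T cells (nTregs) from the spleen of B6.Foxp3GFP mice, in which a green reporter marks Foxp3, were mixed 1 to 10 with T cells depleted of Tregs from the cross of B6.Foxp3GFP with B6.CAGDSRED, which also carries a red fluorescent protein. All cultures received beads coated with anti-CD3 and anti-CD28 and interleukin-2 at 500 U/mL for 2 days, then PBS or 1 µM AzaC (azacytidine, a cytosine analogue that inhibits DNA methyltransferases) for 2 more days. The nTregs were sorted as CD4+, DsRed negative and Foxp3-GFP positive, and the CD4 effector cells (CD4 cells below) as CD4+, DsRed positive and Foxp3-GFP negative. The strain label names the DsRed cross for all 12 samples, the nTregs included. CD4 cells in which Foxp3-GFP had come on were outside both gates, and both populations had shared 1 culture. The labels do not say whether replicates were separate cultures or animals, so the p-values below cover the variation among these arrays, some of which may be technical.

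The Egr proteins are zinc finger factors that bind GC-rich sites. Egr1 is induced through the MAP kinase pathway and serum response factor, while Egr2 and Egr3 also depend on calcineurin and NFAT and are known for restraining T cell activation through genes such as Cblb. The Nr4a proteins are orphan nuclear receptors, active without a known natural ligand. Nr4a1 (Nur77) is a standard reporter of T cell receptor signal strength, and the family acts redundantly in maintaining Foxp3 in Tregs and in T cell exhaustion. All are transient genes whose RNA falls soon after stimulation stops, and the cells here were measured days after the beads were added.

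The promoters of the Nr4a genes are shown because they carry the same short element several times and because AzaC acts on cytosine methylation at CpG, which was not measured. RefSeq promoter windows on GRCm38.p6 were available for 4 of the 6 factors. The sequences below cover the 250 bases before the start of transcription on the gene's strand, for Nr4a1 chr15:101266596-101266845 on the plus strand, for Nr4a2 chr2:57124004-57124253 on the minus strand and for Nr4a3 chr4:48045055-48045304 on the plus strand. Capitals mark TGACG or its reverse complement CGTCA, the core of the cyclic AMP response element (CRE) that CREB family proteins bind.
Nr4a1: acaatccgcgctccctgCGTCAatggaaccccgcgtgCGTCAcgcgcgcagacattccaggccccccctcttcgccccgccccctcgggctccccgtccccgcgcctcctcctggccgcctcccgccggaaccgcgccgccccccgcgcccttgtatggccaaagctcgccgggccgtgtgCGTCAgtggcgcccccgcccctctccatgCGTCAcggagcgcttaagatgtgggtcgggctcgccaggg
Nr4a2: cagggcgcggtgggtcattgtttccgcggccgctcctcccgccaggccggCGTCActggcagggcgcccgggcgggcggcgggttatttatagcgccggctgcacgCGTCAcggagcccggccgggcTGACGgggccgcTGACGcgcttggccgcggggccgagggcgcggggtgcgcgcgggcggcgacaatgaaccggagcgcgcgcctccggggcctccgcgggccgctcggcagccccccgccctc
Nr4a3: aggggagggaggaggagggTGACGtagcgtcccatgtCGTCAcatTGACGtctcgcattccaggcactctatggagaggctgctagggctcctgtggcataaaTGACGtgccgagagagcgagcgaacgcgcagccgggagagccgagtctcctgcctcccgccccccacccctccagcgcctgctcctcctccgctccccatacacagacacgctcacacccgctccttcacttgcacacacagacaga
Each of the Nr4a windows held 4 copies of this core. Of all 32851 RefSeq windows of that length, 17.8% held at least 1 copy and 0.14% at least 4. Other motifs were searched too, and this element was picked for its copies in these windows, so their rarity follows from the choice. The full palindromic CRE was in none of these 3 windows, and in 1.5% of all windows. CpG dinucleotides numbered 34 for Nr4a1, 44 for Nr4a2 and 18 for Nr4a3, against a median of 6 over all windows. As many as the Nr4a2 count stood in 0.54% of windows, and as many as the Nr4a3 count in 21.67%. Egr2, the other factor with promoter windows, had 5 starts, whose windows held 0 to 2 copies of the core. A match to these letters is a description of the window and no evidence of binding.

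The values are log2 signals, so that a difference of 1 is a doubling, and signals of different genes are not set against each other. Tests were run in limma on all 12 arrays, and a gene passed where its p, adjusted by Benjamini-Hochberg across the 22180 genes, was under 0.05. Array medians lay between 6.67 and 6.80. One nTreg PBS array, replicate 1, stood apart, with a mean correlation of 0.973 to the other arrays where the rest had 0.979 to 0.987, and counts without it are given beside the results. Leaving it out moved the number of all genes past the test from 448 to 410 for AzaC in nTregs and from 391 to 1044 in CD4 cells. Between the populations it moved from 1777 to 1607 under PBS and from 1498 to 2467 with AzaC. The CD4 comparison and that of the populations with AzaC do not contain the array, so their differences stayed as they were and only the estimate of spread changed. Foxp3 followed the sort, from 7.79 to 8.26 in CD4 cells under PBS to 11.98 to 12.52 in nTregs under PBS. With AzaC, Foxp3 was 9.39 to 9.85 in CD4 cells and 12.68 to 12.72 in nTregs.

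**Figure D1:**
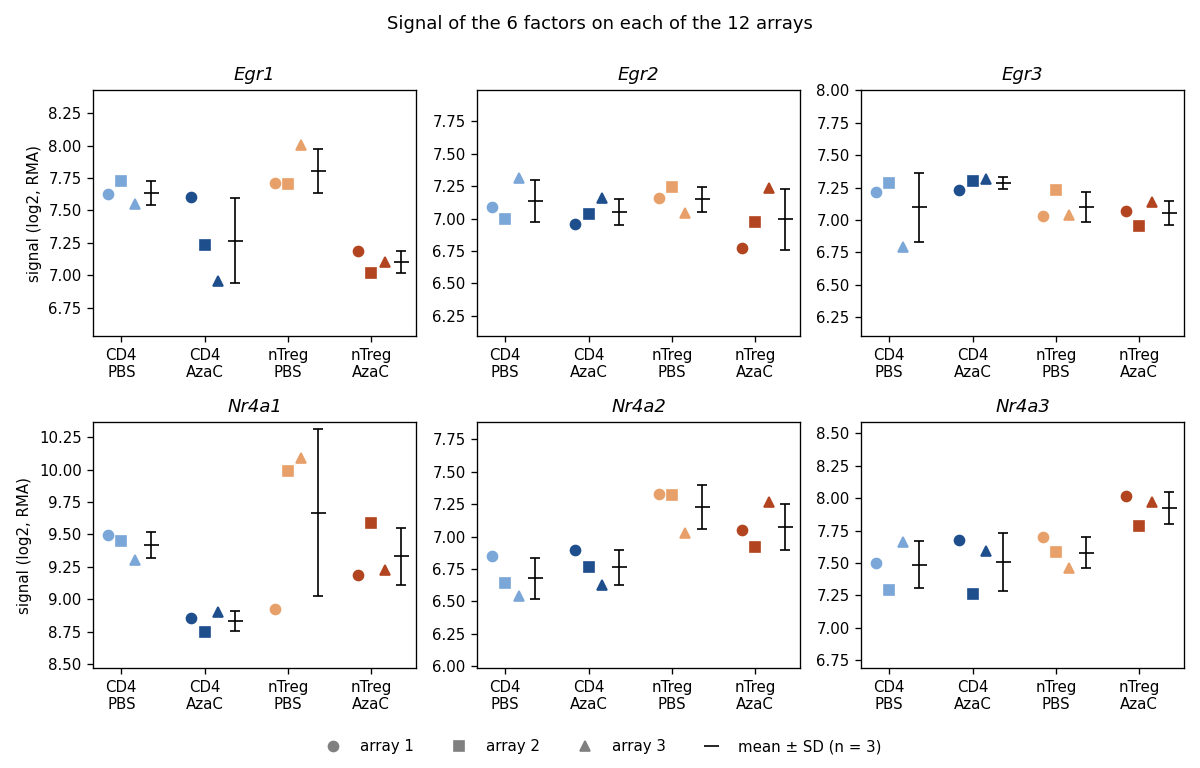
Log2 signal of each of the 6 factors (y axis; every panel spans the same number of log2 units around its own centre) on each of the 12 arrays (points), by group (x axis), with the group mean and SD. Egr1 on the AzaC nTreg arrays, 7.02 to 7.19, lies below all PBS arrays, and the low Nr4a1 point at 8.93 is replicate 1 of the PBS nTregs.

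Egr1 fell in nTregs with AzaC. This zinc finger factor read 7.71, 7.71 and 8.005 in the PBS nTregs and 7.19, 7.02 and 7.10 in the AzaC nTregs. The groups did not overlap, and every AzaC array was below every PBS array. Egr1 fell by 0.70 on the log2 scale (SE 0.15, 95% interval −1.02 to −0.39, n = 3 per group), 1.63-fold, with an adjusted p of 0.0256 in limma. It was the only factor of the 6 that passed in this comparison, in which 2.02% of all genes passed, 1.42% with a higher and 0.600% with a lower level. The CD4 cells read 7.62, 7.73 and 7.55 under PBS and 7.61, 7.23 and 6.95 with AzaC. Replicate 1 of the AzaC CD4 cells lay among the PBS arrays and the other AzaC arrays below them. That difference was −0.37 (SE 0.15, interval −0.68 to −0.05) and did not pass, with an adjusted p of 0.253. The difference between both AzaC effects was −0.34 (interval −0.78 to 0.11, adjusted p = 0.399), so a response particular to nTregs was not shown.

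The call for Egr1 depended on single arrays. It was lost without replicate 3 of the PBS nTregs, where the difference was −0.61 and the adjusted p 0.0707. It was also lost without replicate 1, 2 or 3 of the AzaC nTregs, with adjusted p of 0.0653, 0.121 and 0.0973, and held in the other 8 of 12 fits, while the difference stayed between −0.76 and −0.61. Markers of other cells moved in the same comparison. Both CD8 T cell markers rose in nTregs with AzaC, Cd8a by 1.39 (adjusted p = 0.0018) and Cd8b1 by 0.72 (adjusted p = 0.0213), the latter call lost without replicate 1 of the PBS nTregs (adjusted p = 0.0547) or any AzaC nTreg array (adjusted p of 0.08, 0.0618 and 0.0974). The mean of the pair per array was 8.35 to 8.96 under PBS and 9.62 to 9.75 with AzaC. The 10 myeloid and dendritic markers had a mean per array of 6.69 to 6.77 under PBS and 6.38 to 6.55 with AzaC in nTregs, and 1 of them, Itgam, fell by 0.94 (adjusted p = 0.0335). Of 3 NK markers Eomes, which activated T cells also express, rose by 0.96 (adjusted p = 0.0013). RMA signals have no zero, so that absence of a marker cannot be read from them, and the part of these markers in the fall of Egr1 was not tested. In sorted bulk RNA, fewer cells with a transcript and less transcript per cell cannot be told apart.

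Egr2 and Egr3, the Egr members tied to T cell anergy and to the limitation of effector responses, did not pass in any of the 5 comparisons. Egr2 lay between 6.77 and 7.31 on all arrays. Its AzaC difference was −0.15 in nTregs (interval −0.43 to 0.12) and −0.08 in CD4 cells (interval −0.36 to 0.19), and nTregs and CD4 cells differed by 0.01 under PBS (interval −0.26 to 0.29). Intervals of this width do not show that the level was constant. Egr3 lay between 6.79 and 7.31. With AzaC, its CD4 arrays read 7.23, 7.30 and 7.31 and its nTreg arrays 7.07, 6.96 and 7.14, which did not overlap, a difference of −0.23 (SE 0.13, adjusted p = 0.327). The AzaC difference of Egr3 was −0.05 in nTregs (interval −0.32 to 0.23) and 0.19 in CD4 cells (interval −0.09 to 0.46).

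Nr4a1, the Nur77 reporter of receptor signalling, was lower with AzaC in CD4 cells on every array without passing the test. The CD4 cells read 9.50, 9.45 and 9.30 under PBS and 8.85, 8.75 and 8.90 with AzaC. All AzaC arrays were below all PBS arrays. Groups that did not overlap, in either direction, were seen for 1 of the 6 factors in CD4 cells and for 23.6% of all genes. The difference was −0.58 (SE 0.23, interval −1.08 to −0.09), 1.498-fold, with an adjusted p of 0.248. None of the 6 factors passed in CD4 cells, where 1.76% of all genes passed, 0.830% higher and 0.933% lower, while 2 of the 6 and 3375 of all genes had an unadjusted p under 0.05.

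In nTregs, Nr4a1 read 8.93, 9.99 and 10.09 under PBS and 9.19, 9.59 and 9.23 with AzaC. Replicate 1 of the PBS nTregs was below all AzaC arrays and the other PBS arrays were above them. The difference was −0.34 (SE 0.23, interval −0.83 to 0.16, adjusted p = 0.470). Without this array the Nr4a1 difference was −0.71 in nTregs (adjusted p = 0.00999) and −0.58 in CD4 cells (adjusted p = 0.0107), and both passed. Its gap below both other PBS arrays, 1.06, was matched or exceeded by 220 of all genes, 0.992%. Between the populations with AzaC, nTregs were above CD4 cells on every array by 0.50 (SE 0.23, adjusted p = 0.236), and by the same amount without that array, with an adjusted p of 0.0113. Under PBS the populations overlapped, with a difference of 0.25 (adjusted p = 0.546), or 0.62 without it (adjusted p = 0.00785).

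Nr4a2 (Nurr1), a relative of Nr4a1 known for its part in dopamine neuron development, was higher in nTregs than in CD4 cells. Under PBS it read 7.33, 7.32 and 7.03 in nTregs and 6.85, 6.64 and 6.54 in CD4 cells. All nTreg arrays were above all CD4 arrays, by 0.55 on the log2 scale (SE 0.13, interval 0.27 to 0.83, n = 3 per group), 1.46-fold, with an adjusted p of 0.0188 in limma. No other factor of the 6 passed here or had groups that did not overlap; of all genes 8.01% passed, 3.90% with a higher and 4.12% with a lower level, and 26.7% had groups that did not overlap. The call was lost without replicate 2 or 3 of the PBS CD4 cells (adjusted p of 0.0648 and 0.0778) and without replicate 2 of the PBS nTregs (adjusted p = 0.0579), with differences of 0.48 to 0.65 over the 12 fits. With AzaC, Nr4a2 read 7.05, 6.92 and 7.26 in nTregs and 6.90, 6.76 and 6.62 in CD4 cells. These groups too did not overlap, with a difference of 0.31 (SE 0.13, interval 0.04 to 0.59) that did not pass (adjusted p = 0.184). AzaC itself moved Nr4a2 by −0.15 in nTregs (interval −0.43 to 0.13) and 0.08 in CD4 cells (interval −0.19 to 0.36), neither past the test. Under PBS the myeloid marker mean was 6.69 to 6.77 in nTregs and 6.57 to 6.65 in CD4 cells, with 0 of 10 markers past the test, and the B cell marker mean was 6.51 to 6.64 and 6.41 to 6.45, with 1 of 5, Cd79b, higher. The CD4 T cell markers, the CD3 chains and Cd4, averaged 12.05 to 12.33 in nTregs and 12.66 to 12.73 in CD4 cells, and 2 of 4, Cd3e and Cd4, were lower. The NK marker mean was 6.57 to 6.70 in nTregs and 6.72 to 6.97 in CD4 cells, with 1 of 3, Eomes, lower. The part of these markers in the Nr4a2 difference was not tested.

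Nr4a3 (Nor1) was the only factor whose AzaC arrays all lay above the PBS arrays in nTregs, at 8.02, 7.78 and 7.97 against 7.70, 7.58 and 7.46. The difference of 0.34 (SE 0.13, interval 0.06 to 0.63) did not pass, with an adjusted p of 0.217. With Egr1 it made 2 of the 6 factors whose groups did not overlap in nTregs, against 24.5% of all genes. In CD4 cells Nr4a3 read 7.50, 7.30 and 7.66 under PBS and 7.68, 7.26 and 7.59 with AzaC, which overlapped, with a difference of 0.02 (interval −0.26 to 0.31). With AzaC, Nr4a3 was higher in nTregs than in CD4 cells on every array, by 0.41 (SE 0.13, interval 0.13 to 0.70). This did not pass, with an adjusted p of 0.0851, and passed in 0 of the 12 fits with an array left out (adjusted p from 0.0545 to 0.245).

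**Figure D2:**
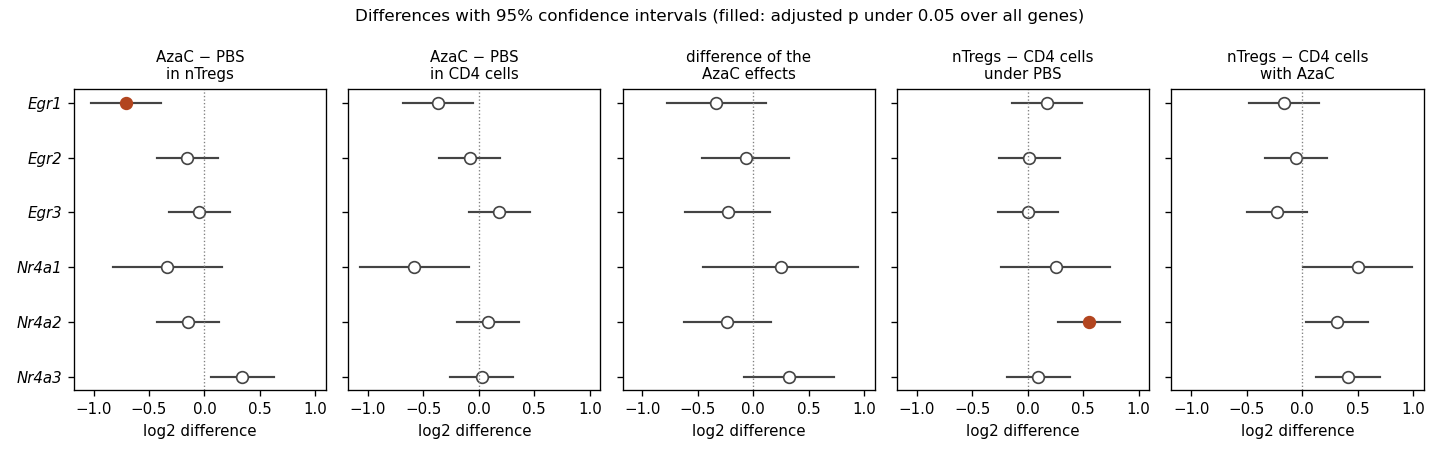
Log2 difference (x axis) of each factor (y axis) in the 5 comparisons (panels), with 95% confidence intervals from limma and filled points where the adjusted p over all genes was under 0.05. Only Egr1 in nTregs with AzaC (−0.70) and Nr4a2 between the populations under PBS (0.55) are filled.

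Set side by side, the 3 Nr4a genes each ran higher in nTregs than in CD4 cells with AzaC on every array, and Egr3 ran lower. These 4 of 6 factors whose groups did not overlap compare with 32.3% of all genes in that comparison, and 0 of the 6 passed, where 6.75% of all genes did, 4.57% higher and 2.19% lower. At an unadjusted p under 0.05 stood 3 of the 6, and 4546 of all genes. The median difference of the 6 was 0.13 there, against −0.04 over all genes. Both CD8 T cell markers were higher in nTregs in this comparison, Cd8a by 1.36 (adjusted p = 0.000454) and Cd8b1 by 1.27 (adjusted p = 7.85e-05). Their mean per array was 9.62 to 9.75 in nTregs and 8.11 to 8.54 in CD4 cells, and 1 of 5 B cell markers, Cd79b, was higher too. The part of these markers in the differences of the Nr4a genes and Egr3 was not tested. In nTregs the median AzaC difference of the 6 was −0.15 against −0.04 over all genes, and in CD4 cells −0.03 against 0.01. The AzaC effects of nTregs and CD4 cells differed past the test for 0 of the 6 factors and for 0.203% of all genes, and 0 of the 6 had an unadjusted p under 0.05 for that difference.

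The order of the groups differed between the factors. Egr1 ran from 7.81 ± 0.17 (SD, n = 3) in PBS nTregs through 7.63 ± 0.09 in PBS CD4 cells and 7.26 ± 0.33 in AzaC CD4 cells to 7.10 ± 0.08 in AzaC nTregs, and no neighbours in that order differed past the test. Nr4a2 was ordered by population, from 7.23 ± 0.17 in PBS nTregs and 7.08 ± 0.18 in AzaC nTregs to 6.76 ± 0.14 in AzaC and 6.68 ± 0.16 in PBS CD4 cells, again with no neighbours past the test. Nr4a3 had its highest mean in AzaC nTregs, 7.92 ± 0.12, and the other groups lay between 7.49 and 7.58. Nr4a1 had its lowest mean in AzaC CD4 cells, 8.83 ± 0.08, and its widest spread in PBS nTregs, 9.67 ± 0.64. Neighbours in these orders that share neither population nor treatment were not compared. Egr2 means lay between 6.99 and 7.15 and Egr3 means between 7.05 and 7.28, with no pair of groups that was compared past the test. Over the 12 arrays, each gene centred on its own mean, the root mean square difference between factors was smallest for Egr2 and Egr3, at 0.23. It was largest for Nr4a1 and Nr4a3, at 0.49. This measure is small for genes that vary little, whether or not they move together. Egr2 and Egr3 had the narrowest ranges over the arrays, 0.54 and 0.52, and Nr4a1 the widest, 1.34.

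Averaging each effect over the other factor of the design, a contrast chosen after seeing the data, gave the 6 factors a tighter estimate. Egr1 was lower with AzaC averaged over both populations at −0.54 (SE 0.10, adjusted p = 0.00961), with all 12 fits without an array past the test (adjusted p from 0.00244 to 0.0324); 3.71% of all genes passed. Nr4a1 stood at −0.46 (adjusted p = 0.167) and passed in 1 of the 12 fits, without replicate 1 of the PBS nTregs (adjusted p = 0.00057). Nr4a2 was higher in nTregs averaged over PBS and AzaC, by 0.43 (SE 0.092, adjusted p = 0.00596), again in all 12 fits (adjusted p from 0.00359 to 0.0207); 11.8% of all genes passed. Nr4a1 stood at 0.38 (adjusted p = 0.177) and passed in 1 of the 12 fits, again without replicate 1 of the PBS nTregs, at 0.56 (adjusted p = 0.000408). Nr4a3 stood at 0.25 (adjusted p = 0.108).

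**Figure D3:**
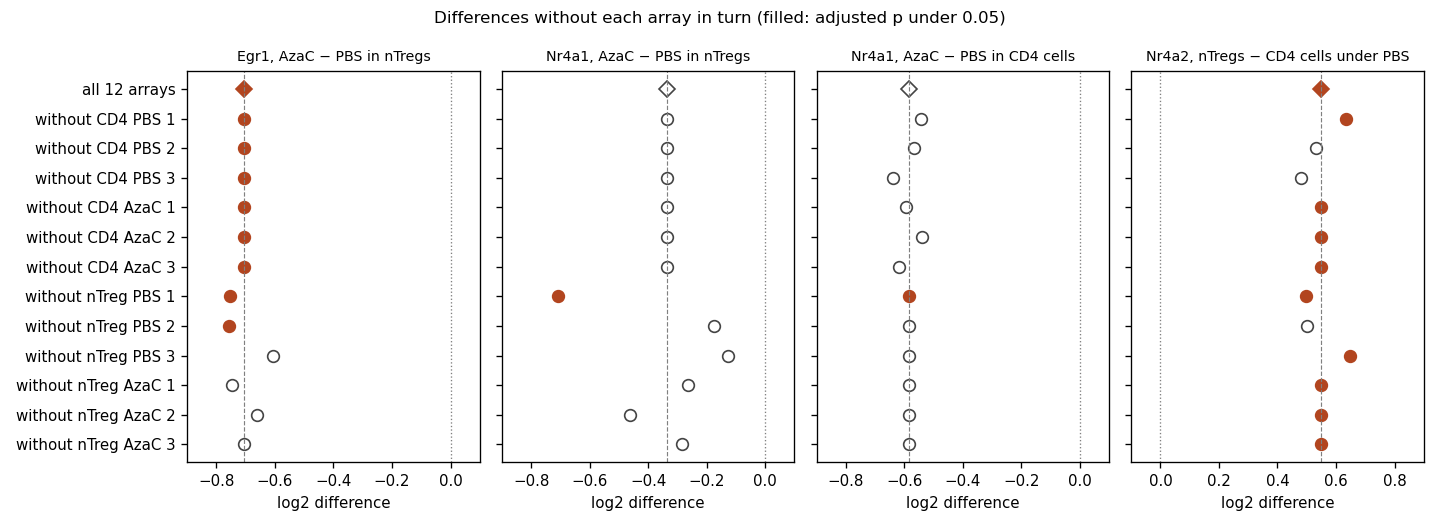
Log2 difference (x axis) from all 12 arrays (diamonds, dashed line) and without each array in turn (circles, y axis) for Egr1 and Nr4a1 with AzaC in nTregs, Nr4a1 with AzaC in CD4 cells and Nr4a2 between the populations under PBS, filled where the adjusted p was under 0.05. Nr4a1 in nTregs moves from −0.34 to −0.71 without replicate 1 of the PBS nTregs, while Egr1 stays between −0.76 and −0.61.

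By the same measure, the genes nearest to Egr1 over the 12 arrays were Fam71f2, Slamf6 and Ubap1l, with differences of 0.14, 0.18 and 0.18, where Egr1 itself had an SD of 0.34. Slamf6 is a surface receptor of T cells. The genes nearest to Nr4a2 were Osbpl6, Grtp1 and Fbxo4, each at 0.12, where Nr4a2 had an SD of 0.27. Osbpl6 encodes an oxysterol-binding protein relative, Grtp1 a growth hormone regulated protein and Fbxo4 an F-box protein. These are the closest profiles among 22180 genes and were picked for it.

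Corepressors and relatives of the Egr and Nr4a families were also followed. Of the 6 (Egr4, Nab1, Nab2, Wt1, Rxra and Rxrb), 0 passed with AzaC in either population, where 2.02% of all genes passed in nTregs and 1.76% in CD4 cells. Without replicate 1 of the PBS nTregs 1 did, Rxrb, lower in CD4 cells, where 1044 of all genes then passed, against 391 with all arrays. Nab1, a corepressor that binds Egr1 and Egr2, was lower in nTregs than in CD4 cells under PBS by 0.41 (adjusted p = 0.0478), a call that held in 3 of the 12 fits with an array left out and not without replicate 1 of the PBS nTregs. Nab2, the other such corepressor, read 9.28, 10.23 and 10.39 in PBS nTregs, again with replicate 1 low, and 10.27, 10.17 and 10.36 in AzaC nTregs. Without that array Nab2 was the 1 of these 6 that passed between the populations, higher in nTregs under PBS and with AzaC. Over all genes 849 and 1596 were then higher.

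Of the receptor pathway upstream of the 6 factors, no measured gene passed with AzaC in nTregs or in CD4 cells: 0 of 14 proximal signalling genes, 0 of 10 of calcineurin and NFAT and 0 of 11 from MAP kinase to serum response factor. Without replicate 1 of the PBS nTregs 1 of them passed, Zap70, lower in CD4 cells, where 1044 of all genes then passed. Between the populations under PBS, genes of all 3 lists were lower in nTregs, where 4.12% of all genes were lower. Of the proximal genes 6 of 14 were lower and 0 higher, among them Rasgrp1, which couples the receptor to Ras, at −0.86 (adjusted p = 0.000391). Its call held in all 12 fits with an array left out. Cd3e, a chain of the receptor complex, differed by −0.77 (adjusted p = 0.0147) and lost its call without replicate 3 of the PBS CD4 cells (adjusted p = 0.0502). Nfatc1, the NFAT factor that receptor signalling induces, stood at −0.73 (adjusted p = 0.00938). It was among 2 of 10 calcineurin and NFAT genes that were lower, with 0 higher. In the MAP kinase list 4 of 11 were lower and 0 higher, with Elk4, a partner of serum response factor, at −0.76 (adjusted p = 0.00288) and Creb1, which binds the CRE, at −0.72 (adjusted p = 0.0123). Srf itself stood at −0.46 (adjusted p = 0.049) and lost its call in 11 of the 12 fits with an array left out. The list medians were −0.22, −0.26 and −0.33 in that order, against 0.03 over all genes. Many of these genes were low on replicate 1 of the PBS nTregs, and without it 4 of 14, 1 of 10 and 2 of 11 were lower, with Rasgrp1, Nfatc1, Elk4 and Creb1 among them. Over all genes 1607 then passed under PBS, 849 of them higher. With AzaC, where 2.19% of all genes were lower in nTregs, 1 of 14, 1 of 10 and 0 of 11 were lower and 0 higher, with list medians of −0.17, −0.13 and −0.01 against −0.04 over all genes. Without the array these counts with AzaC were 3 lower and 0 higher, 3 lower and 1 higher, and 0 lower and 1 higher. Over all genes 2467 then passed with AzaC, 1596 of them higher.

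Other immediate early genes ran the other way between the populations. Of 21 measured, 4 were higher in nTregs under PBS and 0 lower, and with AzaC 7 were higher and 0 lower, with a list median of 0.15 under PBS and 0.44 with AzaC against 0.03 and −0.04 over all genes. Without replicate 1 of the PBS nTregs, 8 were higher under PBS and 11 with AzaC, and 0 were lower in either, while 849 and 1596 of all genes were higher, against 864 and 1013 with all arrays. With AzaC, the AP-1 members Fos and Fosl2 were higher by 1.15 (adjusted p = 0.000365) and 1.39 (adjusted p = 0.000521), and Nfkbia, the NF-κB inhibitor that NF-κB itself induces, by 0.80 (adjusted p = 9.44e-05). These held in all 12 fits with an array left out, under PBS too, where Fos was 0.87 higher, Fosl2 0.93, Nfkbia 0.49 and the MAP kinase phosphatase Dusp5 0.84. In nTregs treated with AzaC, the comparison in which Egr1 fell, Fosb rose by 0.84 (adjusted p = 0.0399) and Nfkbia by 0.42 (adjusted p = 0.0348). They were 2 of 21, where 1.42% of all genes rose, and their calls held in 2 and 4 of the 12 fits. Without replicate 1 of the PBS nTregs, 1 of 21 rose, Nfkbia, and 1 fell, Zfp36, while 410 of all genes passed, 252 of them higher. In CD4 cells, where 1.76% of all genes passed, 1 of 21 did. It was the RNA-binding protein gene Zfp36, which fell by 0.49 (adjusted p = 0.0359) with a call that held in 2 of the 12 fits. Without that array 1 rose and 3 fell in CD4 cells, where the calls over all genes went from 391 to 1044.

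**Figure D4:**
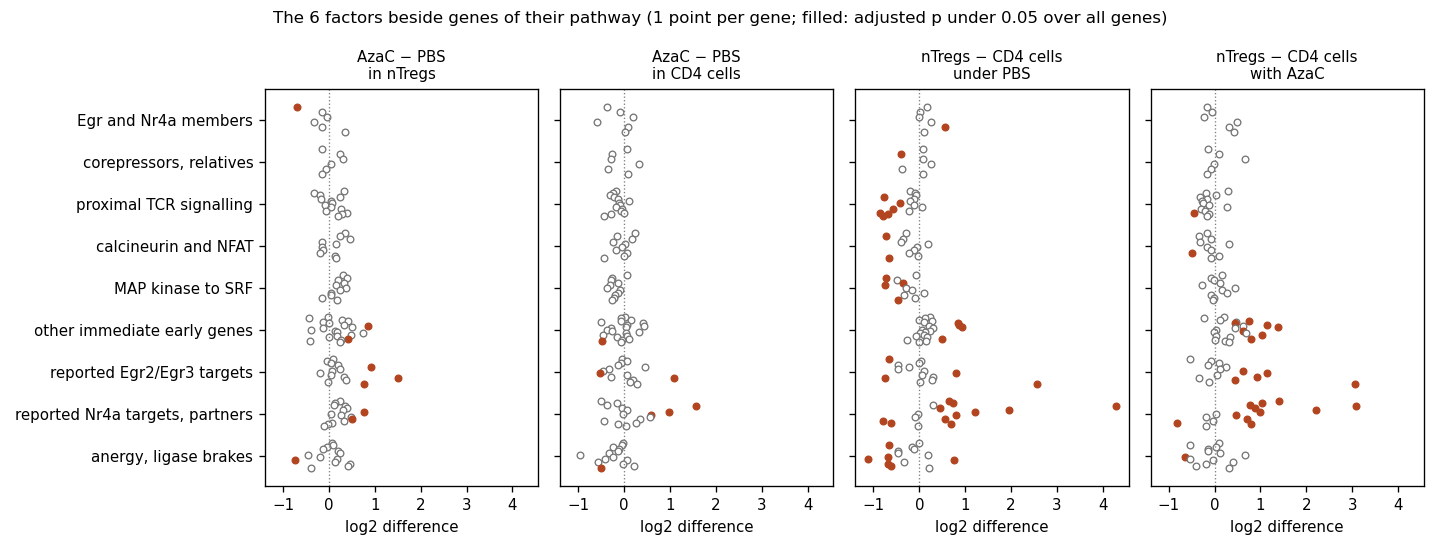
Log2 differences (x axis) of the 6 factors and of the measured genes of each pathway list (y axis, 1 point per gene) in 4 comparisons (panels), filled where the adjusted p over all genes was under 0.05. All filled genes of the 3 upstream lists lie below 0 between the populations under PBS, and all filled immediate early genes lie above 0.

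Genes reported as Egr2 or Egr3 targets in T cells did not follow a single direction. Of 14, 3 rose and 0 fell with AzaC in nTregs, against 1.42% and 0.600% of all genes. The list median was 0.145, against −0.04 over all genes. The genes that rose were the semaphorin Sema7a by 1.496 (adjusted p = 9.66e-05), Fas ligand Fasl by 0.91 (adjusted p = 0.029) and the co-stimulatory receptor Tnfrsf9 by 0.77 (adjusted p = 0.0319). The Sema7a call held in all 12 fits with an array left out. That of Fasl was lost without each AzaC nTreg array (adjusted p of 0.0937, 0.0943 and 0.112), and that of Tnfrsf9 also without replicate 1 of the PBS nTregs (adjusted p = 0.0808; 0.0711, 0.149 and 0.103 without the AzaC nTreg arrays). In CD4 cells Sema7a rose by 1.09 (adjusted p = 0.00106) and the transcription factor gene Nfil3 fell by 0.52 (adjusted p = 0.0404), the Nfil3 call holding in 2 of the 12 fits. Between the populations, Tnfrsf9 was 2.57 higher in nTregs under PBS and 3.06 higher with AzaC, and the ubiquitin ligase gene Cblb, an Egr2 and Egr3 target in anergy, stood at −0.66 under PBS (adjusted p = 0.0153), a call lost without replicate 2 or 3 of the PBS CD4 cells (adjusted p of 0.0558 and 0.0603). In that comparison 2 of 14 were higher and 2 lower, against 3.90% and 4.12% of all genes. With AzaC 5 were higher and 0 lower, against 4.57% and 2.19% of all genes. The list median was 0.03 under PBS and 0.11 with AzaC, against 0.03 and −0.04 over all genes. Without replicate 1 of the PBS nTregs, 2 of 14 rose with AzaC in nTregs, Sema7a and Fasl, and 252 of all genes did. In CD4 cells 1 of 14 then rose and 2 fell, Lag3 and Nfil3, and between the populations with AzaC 5 were higher and 1, Cblb, was lower. Over all genes 1044 then passed in CD4 cells, 368 of them higher, and 2467 between the populations with AzaC, 1596 of them higher.

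Genes reported as Nr4a targets or partners include Treg genes that the sort itself selects. Under PBS, 9 of 15 were higher in nTregs and 2 were lower, against 3.90% and 4.12% of all genes. With AzaC 10 of 15 were higher and 1 was lower, against 4.57% and 2.19% of all genes. Without replicate 1 of the PBS nTregs 10 were higher in each comparison, and 849 of all genes under PBS and 1596 with AzaC. The list median was 0.56 under PBS and 0.77 with AzaC, against 0.03 and −0.04 over all genes. Foxp3 was 4.29 higher under PBS and Ikzf2, the Helios factor of natural Tregs, 1.96 higher. The lower genes under PBS were Runx1, at −0.80, and Runx3, at −0.61. With AzaC in CD4 cells, 3 of 15 rose and 0 fell, against 0.830% and 0.933% of all genes. They were Foxp3 by 1.57 (adjusted p = 0.000207), Ikzf4, the Eos partner of Foxp3, by 0.98 (adjusted p = 0.00307) and the interleukin-2 receptor gene Il2ra by 0.59 (adjusted p = 0.00383). In nTregs, where 1.42% of all genes rose, 2 of 15 did, Ikzf4 by 0.76 (adjusted p = 0.0152) and the inhibitory receptor gene Pdcd1 by 0.50 (adjusted p = 0.0476). The Ikzf4 call in nTregs was lost without each AzaC nTreg array (adjusted p of 0.0686, 0.065 and 0.056), and that of Pdcd1 held in 2 of the 12 fits. Without replicate 1 of the PBS nTregs, 2 of 15 rose in nTregs and 4 rose and 1 fell in CD4 cells. Over all genes 252 then rose in nTregs, and in CD4 cells 1044 passed, 368 of them higher.

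Among 14 genes of anergy and of ubiquitin ligase brakes, 1 fell and 0 rose with AzaC in nTregs, against 0.600% and 1.42% of all genes. The gene that fell was Rnf128, the ligase known as GRAIL and reported downstream of Egr2 and Egr3. It read 6.56 ± 0.14 (SD, n = 3) under PBS and 5.83 ± 0.06 with AzaC. The difference was −0.73 (SE 0.12, adjusted p = 0.00417), and the call held in all 12 fits with an array left out. The AzaC mean lay below 5.89, the 25th percentile of genes, so the gene was dim there. Under PBS Rnf128 was also higher in nTregs than in CD4 cells, by 0.76 (adjusted p = 0.000961). The test of the difference of its AzaC effects between the populations did not pass, at −0.80 (adjusted p = 0.0704). In CD4 cells, where 1.76% of all genes passed, 1 of 14 did. It was Ubash3b, a phosphatase that restrains receptor signalling, at −0.50 (adjusted p = 0.0333), with a call that held in 3 of the 12 fits. Without replicate 1 of the PBS nTregs, 2 of 14 fell in nTregs and 4 of 14 in CD4 cells. Over all genes 410 and 1044 then passed, 252 and 368 of them higher. Between the populations under PBS 1 was higher and 5 were lower, against 3.90% and 4.12% of all genes. The phosphatase Ptpn6 (SHP-1) was among the lower, at −1.12 (adjusted p = 0.000489). With AzaC 0 were higher and 1 was lower, against 4.57% and 2.19% of all genes. The list median was −0.39 under PBS, or −0.10 without replicate 1 of the PBS nTregs, and −0.09 with AzaC. Without that array 5 were lower and 1 higher under PBS, and 4 lower and 2 higher in the AzaC groups. Over all 22180 genes, 1607 then passed under PBS, 849 of them higher, and 2467 in the AzaC groups, 1596 of them higher. The difference of the AzaC effects between the populations passed for 0 genes of these 8 lists, and without replicate 1 of the PBS nTregs for 1, Foxp3. Over all genes it passed for 45, and for 69 without that array.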

How the data were processed

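Biotin-labelled material from the total RNA of 12 samples was hybridised to Affymetrix arrays, 1 sample per array, per the labels' protocols. The deposited values are log2 signals that the authors made by RMA; the tool, Affymetrix Expression Console, is named without a version, per the submitters' processing notes. A genome build for that annotation is not given in the sources. Of 41345 rows, 23521 carried exactly 1 symbol in the platform's probe table, and the brightest row per gene left 22180 genes. No filter on dim genes was applied; all 6 factors had means above 5.89, the 25th percentile of genes.

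A linear model with 4 group means was fitted in R 4.3.3 with the packages limma 3.58.1 and, for the random block, statmod 1.5.0, with 8 residual and 5.95 prior degrees of freedom, and Benjamini-Hochberg adjustment over all genes for each of 5 comparisons. The fit was tested on simulated data. The median SE of a difference was 0.13, and the 3 arrays per group limit the precision. The comparisons share arrays. Figures were drawn with matplotlib 3.10.9 in Python 3.11.15. Promoters came from the RefSeq table of GRCm38.p6.

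The factors and lists were chosen with earlier results of these data known. Genes named were the 6 factors, up to 4 of the called genes with the smallest p in a list and its first-named members, the 3 genes nearest to each called factor (predicted models, small RNAs and receptor segments passed over), and Foxp3, Cd8a and Cd8b1; markers beside a result, Runx1, Runx3, Srf, Cblb, Nab2 and genes named for a count without an array were named after their values were seen. Some listed genes are not reported here. Alternatives were leaving out each array, a filter on dim genes, centring, repeated quantile normalization, the mean over rows, all rows tested, replicate blocks, array weights, another moderation of variances, and a fit of the compared groups alone. Contrasts averaged over both populations or treatments and list counts without replicate 1 of the PBS nTregs were added after seeing the data. Samples with the same replicate number were checked for shared deviations: 3 of 18 pairs correlated above 0.1, so the numbers were not taken to pair samples.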

Additional observations from a re-analysis of the deposited data

How the results depend on the processing

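Of 654 values of the 6 factors under the alternatives, 599 kept their direction and their side of the threshold, 11 lost a call, 13 gained one and 31 changed sign, and the cause was not tested. For the called list genes with the smallest p, up to 4 per list and comparison, and Cd8a and Cd8b1, 1153 of 1342 values kept the call and 0 changed sign; other called list genes were not followed. The number of factors past the test ranged over the fits with an array left out from 0 to 2 for AzaC in nTregs, from 0 to 1 in CD4 cells, from 0 to 2 between the populations under PBS and from 0 to 1 with AzaC; it was 0 throughout for the difference of effects. Testing every row left 0 in nTregs (Egr1 adjusted p = 0.0894) and 0 between populations under PBS (Nr4a2 adjusted p = 0.0505). Fitting only the compared groups gave 0 (Egr1 adjusted p = 0.0504) and 0 (Nr4a2 adjusted p = 0.0796) in these, and 1, Nr4a1, in CD4 cells (adjusted p = 0.0262) and between populations with AzaC (adjusted p = 0.0227). In such fits 396 of all genes passed in CD4 cells and 2350 between populations with AzaC. Array weights, lowest at 0.194 for replicate 1 of the PBS nTregs, gave 2 in nTregs and 2 in CD4 cells (Egr1 and Nr4a1 in each), 2 under PBS (Nr4a1 and Nr4a2) and 3 with AzaC (the Nr4a genes). Calls over all 22180 genes rose as well with these weights, to 1290 in nTregs, 1291 in CD4 cells, 2528 under PBS and 3500 with AzaC.

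All changes of sign concerned differences that had not passed. Centring gave Egr3 0.0059 for AzaC in nTregs, Nr4a3 −0.049 for AzaC in CD4 cells, Egr2 0.056 for the difference of effects, and Egr2 −0.074 and Egr3 −0.086 between populations under PBS. Repeated quantile normalization gave Egr3 0.0013 in nTregs, Nr4a2 −0.0036 in CD4 cells, Egr2 0.036 for the difference of effects, and Egr2 −0.060 and Egr3 −0.083 under PBS. Array weights gave Egr2 0.024 and Nr4a2 −0.011 in CD4 cells, Nr4a1 −0.054 for the difference of effects and Egr3 −0.0445 under PBS. With an array left out, Egr3 in nTregs ran from −0.0875 to 0.0197. In CD4 cells Egr2 ran from −0.153 to 0.0062 and Nr4a3 from −0.0715 to 0.15. The difference of effects ran from −0.19 to 0.043 for Egr2 and from −0.12 to 0.46 for Nr4a1. Under PBS, Egr2 ran from −0.0552 to 0.104, Egr3 from −0.15 to 0.097 and Nr4a3 from −0.0007 to 0.18. With AzaC, Egr1 ran from −0.32 to 0.0085 and Egr2 from −0.18 to 0.057.

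With the replicate number as a fixed or random block no call among the 6 factors changed: the blocked counts were 1 in nTregs, 0 in CD4 cells, 0 for the difference of effects, 1 under PBS and 0 with AzaC. Of the 12 arrays, 4 correlated best with their own number.

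Over all genes, 448 passed in nTregs, 391 in CD4 cells, 45 for the difference of effects, 1777 under PBS and 1498 with AzaC. Array weights gave 1290, 1291 and 401 in the first 3 and 3500 with AzaC, testing every row gave 219, 255 and 13, and fitting only the compared groups gave 125 in nTregs, 648 under PBS and 2350 with AzaC. For the difference of effects the filter on dim genes gave 80 and centring 89. Leaving out an array gave 186 to 447 in nTregs, 164 to 1044 in CD4 cells, 9 to 69 for the difference of effects, 1042 to 1862 under PBS and 896 to 2467 with AzaC. Of the calls, 315 of 448 in nTregs, 184 of 391 in CD4 cells and 864 of 1777 under PBS were higher; after centring 394 of 478, 132 of 483 and 583 of 1998 were. Centring moved the median of all genes for the difference of effects from −0.04 to 0.09.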

Other observations

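Some genes of the receptor pathway and response other than Nr4a1 were also low on replicate 1 of the PBS nTregs, and others were not. They were looked up after that array was seen to stand apart, and those named first were picked for their low values. Jun, an AP-1 member, read 9.51 there and 11.49 and 11.38 on the other PBS nTreg arrays, and 5 of all genes had a gap below both at least as wide. Junb read 10.24 against 11.37 and 11.65, and the kinase gene Zap70 9.72 against 10.72 and 10.84. Egr1, Egr2, Nr4a2 and Nr4a3 were not below both other arrays on that replicate. Neither were other immediate early genes such as Nfkbia, at 11.27 against 11.11 and 11.16, and Cd69, at 11.16 against 11.03 and 11.03.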
